A study of Rattus norvegicus with 20 samples.

Results

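The genes described here encode the pore-forming subunits of the AMPA receptor and 4 of the proteins that travel with it. They are Gria1, Gria2, Gria3 and Gria4 for the subunits GluA1 to GluA4, Cacng2, Cacng3 and Cacng8 for transmembrane AMPA receptor regulatory proteins (TARPs), and Cnih2 for a cornichon protein. The members were taken by gene symbol from the deposited matrix of read counts, and all 8 were found among its 31038 named genes. All 8 were also among the 16605 genes kept by the low-count filter, which asked for 5 or more reads in no fewer than 10 libraries. RNA was measured by poly(A) RNA-seq in the medial prefrontal cortex (mPFC) of 20 male Sprague-Dawley rats, 1 library per rat. The 10 LSD rats had received 0.16 mg/kg lysergic acid diethylamide, a serotonergic psychedelic, and the 10 Saline rats sterile saline, in both groups by intraperitoneal injection every other day for 90 days from an age of 6 to 8 weeks. The series text places tissue collection 3 weeks after treatment ended, so the comparison asks what differed in the mPFC after a drug-free interval; the study's methods give another interval and age.

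AMPA receptors are tetrameric glutamate-gated cation channels that carry most of the fast excitatory current at cortical synapses. Which subunits are present sets how the channel conducts, and edited GluA2 makes it nearly impermeable to calcium. TARPs bind the receptor, bring it to the surface, anchor it to postsynaptic scaffolds and slow its closing, while cornichons help it leave the endoplasmic reticulum and also slow its gating.

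The subunit genes Gria2, Gria3 and Gria4 were higher in LSD than in Saline rats and Cnih2 was lower. The fitted LSD level was 1.18 times the Saline level for Gria2, 1.16 times for Gria3, 1.20 times for Gria4 and 0.814 times for Cnih2. Gria1 stood at 1.10 times and just missed the threshold, and the TARP genes Cacng2, Cacng3 and Cacng8 did not pass it. With p-values from edgeR's quasi-likelihood F test, adjusted by Benjamini-Hochberg over all 16605 genes, and a threshold of 0.05, 3 of the 8 members were thus called higher and 1 lower, where 6.48% of all genes tested were called higher and 8.54% lower. The median log2 fold change was 0.11 over the 8 members, 0.23 over the 4 subunit genes and 0.00 over all genes tested. All 4 calls were lost, and no member was past the threshold, when the relation of expression to gene span was removed in each library, as the paragraph on gene span describes. Bulk tissue was sequenced, so more cells of a type and more RNA per cell cannot be told apart.

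Some libraries stood apart from the rest. Reads on named genes ran from 16346629 to 25552681 in the LSD and from 11098076 to 24201351 in the Saline libraries. Over the 8 genes, the lowest count in any library was 556 reads, for Gria4, so counting error was small beside the spread between rats. The summed level of 7 markers of striatal neurons, a neighbouring tissue, was between 536 and 777 RPM (mapped reads on named genes per 1000000) in LSD 9, Saline 2, Saline 8 and Saline 9, against at most 391 RPM in the other 16 libraries. The values of the 8 genes are given with and without these 4 libraries. Slc17a7, the vesicular glutamate transporter of cortical excitatory neurons, was present in every library with at least 23942 reads, at 1853 ± 220 RPM in LSD and 2092 ± 309 RPM in Saline rats (SD, n = 10 each).

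**Figure D1:**
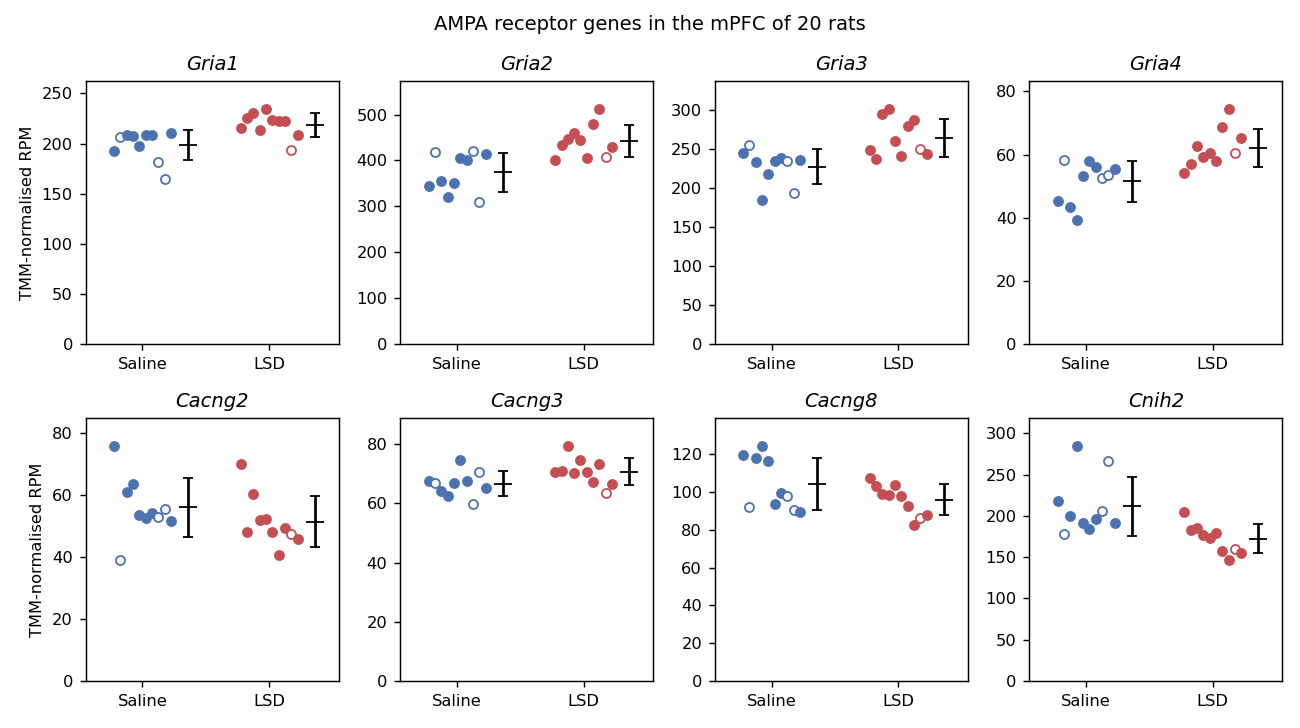
Levels of the 8 genes in each rat, in TMM-normalised RPM from 0, with Saline on the left and LSD on the right of each panel. Each point is 1 rat, open points are the 4 libraries high in striatal markers, and the bar beside each group is the mean ± SD of 10 rats; all 10 LSD rats lie above the Saline median for Gria2, Gria3 and Gria4, and 9 of 10 lie below it for Cnih2.

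Gria2 encodes GluA2, the subunit that limits calcium entry. Its level, in RPM scaled by TMM factors, had a lowest, median and highest value of 402, 440 and 512 in the LSD rats and of 309, 379 and 422 in the Saline rats. The groups overlapped between 402 and 422 RPM, but 7 LSD rats were above every Saline rat and all 10 were above the Saline median. The means were 442 ± 35.0 RPM (SD, n = 10) and 374 ± 42.9 RPM (SD, n = 10). The log2 fold change was 0.24 ± 0.06 (SE) with an edgeR adjusted p of 0.0174. Without the 4 libraries high in striatal markers it was 0.27 with an adjusted p of 0.00916.

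Gria3, on the X chromosome, encodes GluA3, a subunit that pairs with GluA2 in many cortical receptors. Its lowest, median and highest levels were 237, 256 and 302 RPM in LSD and 185, 235 and 256 RPM in Saline rats. Here 5 LSD rats were above every Saline rat, 7 Saline rats were below every LSD rat, and the highest Saline value, in Saline 2, lay at the LSD median. The log2 fold change was 0.22 ± 0.06 (SE), from means of 265 ± 24.0 RPM and 228 ± 22.4 RPM (SD, n = 10 each), with an edgeR adjusted p of 0.0234. It was 0.23 without the 4 libraries, with an adjusted p of 0.0230.

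Gria4, which encodes GluA4 and is known from fast-spiking interneurons, had the largest fold change of the 8 genes in the higher direction. Its lowest, median and highest levels were 54.3, 60.5 and 74.3 RPM in LSD and 39.4, 53.2 and 58.2 RPM in Saline rats. The groups overlapped, with 7 LSD rats above every Saline rat and 6 Saline rats below every LSD rat. The means were 62.0 ± 5.97 RPM and 51.5 ± 6.50 RPM (SD, n = 10 each), a log2 fold change of 0.27 ± 0.07 (SE) with an edgeR adjusted p of 0.0168. Without the 4 libraries it was 0.31 with an adjusted p of 0.0147.

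Gria1 encodes GluA1, the subunit whose phosphorylated tail takes part in activity-dependent insertion at synapses. Its lowest, median and highest levels were 193, 222 and 234 RPM in LSD and 165, 207 and 210 RPM in Saline rats. The LSD values were packed closely, and 8 of the 10 were above every Saline rat. LSD 9 and Saline 9, the lowest rats of their groups, are among the libraries high in striatal markers. The log2 fold change was 0.14 ± 0.05 (SE) with an edgeR adjusted p of 0.0519. This value lay at the threshold. The adjusted p of Gria1 was past the threshold in 9 alternative settings and was not in 23. Without the 4 libraries the log2 fold change was smaller, at 0.12, with an adjusted p of 0.0384. The adjusted p was 0.0287 in DESeq2. It was 0.0594 with median-ratio factors, 0.0554 with no filter on low counts and 0.0550 at equal depth. In the 20 fits without a single library it ran from 0.0324 to 0.0873 and was past the threshold in 3. Those were 0.0324 without LSD 9, 0.0391 without Saline 2 and 0.0390 without Saline 10.

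The summed level of the 4 subunit genes was 988 ± 63.9 RPM in LSD and 852 ± 73.3 RPM in Saline rats (SD, n = 10 each). The values ran from 911 to 1096 RPM and from 721 to 940 RPM, and the sum is given as a description without a test. The make-up of that sum was close in both groups. Gria1 took 22.2% ± 1.37 of subunit reads in LSD and 23.4% ± 1.88 in Saline rats, Gria2 took 44.7% ± 1.09 and 43.8% ± 1.72, Gria3 took 26.8% ± 1.31 and 26.7% ± 1.34, and Gria4 took 6.28% ± 0.402 and 6.05% ± 0.662 (SD, n = 10 each). These are shares of reads and not of molecules, since reads depend on transcript length, and levels of different genes are not ranked here for the same reason.

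Cnih2, the cornichon that rides with forebrain AMPA receptors, went the other way. Its lowest, median and highest levels were 147, 175 and 205 RPM in LSD and 178, 198 and 285 RPM in Saline rats. The groups overlapped between 178 and 205 RPM, and the Saline values were spread wider, with Saline 4 at 285 RPM and Saline 9 at 266 RPM well above the rest. The means were 172 ± 17.5 RPM and 212 ± 35.7 RPM (SD, n = 10 each), and the log2 fold change of -0.30 ± 0.08 (SE) had an edgeR adjusted p of 0.0194. Without the 4 libraries high in striatal markers it was -0.27 with an adjusted p of 0.0328.

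The TARP genes gave no call. Cacng8, the TARP found mainly in forebrain, had lowest, median and highest levels of 82.5, 98.3 and 107 RPM in LSD and 89.4, 98.7 and 124 RPM in Saline rats, with a log2 fold change of -0.12 ± 0.07 (SE) and an edgeR adjusted p of 0.260. The medians nearly coincided, and the Saline group reached higher. Cacng2, which encodes stargazin, the founding TARP, had levels of 40.7, 48.8 and 70.2 RPM in LSD and 39.1, 54.0 and 75.9 RPM in Saline rats. LSD 1 and Saline 1 were the highest of their groups, the groups overlapped over nearly the whole range, and the log2 fold change was -0.12 ± 0.10 (SE) with an edgeR adjusted p of 0.411. Cacng3, a TARP of cortical excitatory neurons, had levels of 63.7, 70.7 and 79.4 RPM in LSD and 59.7, 66.9 and 74.8 RPM in Saline rats. Its log2 fold change was 0.09 ± 0.05 (SE) with an edgeR adjusted p of 0.207, and 8 of 10 LSD rats were above the Saline median. Leaving out the 4 libraries high in striatal markers, Cacng8 stood at -0.16 (adjusted p = 0.117), Cacng2 at -0.19 (adjusted p = 0.195) and Cacng3 at 0.09 (adjusted p = 0.152). The summed TARP level was 218 ± 17.5 RPM in LSD and 227 ± 20.9 RPM in Saline rats (SD, n = 10 each).

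**Figure D2:**
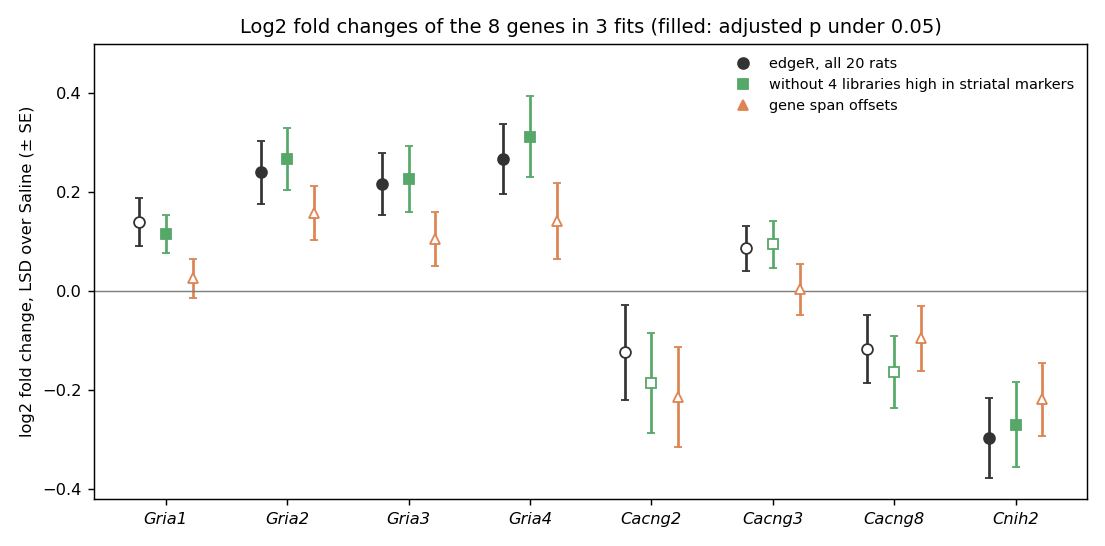
Log2 fold changes of LSD over Saline ± SE for the 8 genes in 3 fits: edgeR on all 20 rats, the same without the 4 libraries high in striatal markers, and all 20 rats with gene span offsets. Filled symbols have an adjusted p under 0.05; Gria2, Gria3, Gria4 and Cnih2 are filled in the first fit, Gria1 as well in the second, and no gene in the third.

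Gene span, the distance from a gene's first to its last base in the genome including introns, moved with the result. In each library the deviation of a gene's log2 level from its mean over the rats was correlated with its span over 14271 genes, and this Spearman's rho was between 0.07 and 0.29 in the LSD libraries and between -0.43 and 0.11 in the Saline libraries. Long genes thus tended to stand high in LSD libraries. The subunit genes are long, at 319566 bases for Gria1 (GRCr8 chr10:41710540-42030105), 120127 bases for Gria2 (chr2:168247490-168367616), 265716 bases for Gria3 (chrX:125103975-125369690) and 474601 bases for Gria4 (chr8:9845421-10320021). Cnih2 is short, at 5684 bases (chr1:211828791-211834474), and Cacng8 spans 20237 bases (chr1:74670767-74691003). Genes in the same 50th of all genes by span as Cnih2 had a median log2 fold change of -0.09, and those in the 50th of Gria4 one of 0.15.

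With centred offsets for span in the edgeR fit, the log2 fold changes were 0.16 for Gria2 (adjusted p = 0.0646), 0.11 for Gria3 (adjusted p = 0.210), 0.14 for Gria4 (adjusted p = 0.238), 0.03 for Gria1 (adjusted p = 0.716) and -0.22 for Cnih2 (adjusted p = 0.0578). Every one of these kept its direction, and none passed the threshold. Cacng2, a long gene at 127467 bases that stood lower in LSD, went from -0.12 to -0.21 (adjusted p = 0.168), while Cacng3 went to 0.00 (adjusted p = 0.974) and Cacng8 to -0.10 (adjusted p = 0.372). In the same fit without the 4 libraries high in striatal markers, Gria2 was past the threshold at 0.20 (adjusted p = 0.0271) and the other 7 genes were not. Over all genes, 605 were called higher and 1100 lower with the offsets, against 1076 and 1418 without them. What gives libraries their relation to span was not tested.

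**Figure D3:**
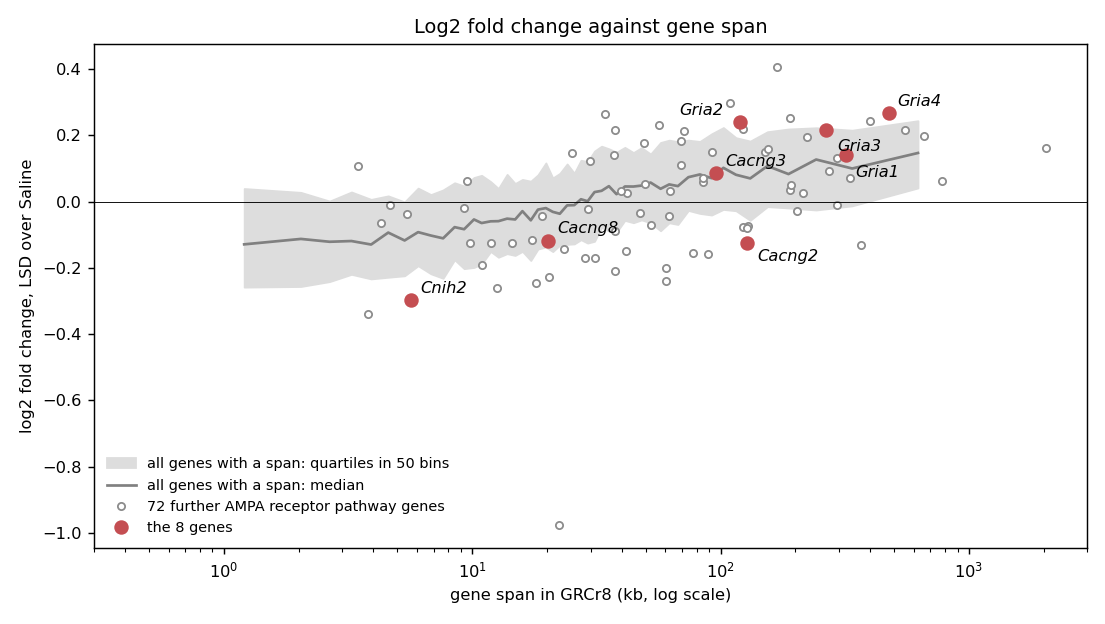
Log2 fold change of LSD over Saline against gene span on a log axis. Large red points are the 8 genes, open points the 72 further genes of the AMPA receptor lists, the grey line and band the median and quartiles over all genes with a span in 50 equal bins; the median climbs from -0.13 in the shortest to 0.15 in the longest bin, with Gria2 and Gria4 above the quartiles of their bins, Cnih2 and Cacng2 below theirs, and Gria1, Gria3, Cacng3 and Cacng8 within.

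Ratios between members within a library need no scaling between libraries. In an exact two-sided Wilcoxon rank sum test over 10 against 10 rats, none of 5 ratios differed past a threshold of 0.05 after adjustment over the 5. The log2 ratio of Gria1 to Gria2 reads was -1.01 ± 0.11 in LSD and -0.91 ± 0.16 in Saline rats (SD, exact p = 0.165, adjusted p = 0.414). Gria3 to Gria2 differed by -0.03 (exact p = 0.684, adjusted p = 0.853) and Gria4 to Gria2 by 0.03 (exact p = 0.315, adjusted p = 0.525). The Gria4 to Gria2 ratio ran from -2.96 to -2.72 in LSD and from -3.03 to -2.53 in Saline rats, and the groups overlapped in all 3 subunit ratios. Without the 4 libraries high in striatal markers, the adjusted p of these 3 exact tests was between 0.178 and 0.670.

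The ratio of the TARP genes Cacng3 to Cacng2 stood furthest apart. Its lowest, median and highest log2 values were 0.01, 0.53 and 0.72 in LSD and -0.17, 0.32 and 0.77 in Saline rats, and 9 of 10 LSD rats were above the Saline median. The mean difference was 0.21, with an exact p of 0.0232 and an adjusted p of 0.116. LSD 1 was the lowest LSD rat by a wide margin, and Saline 2 the highest Saline rat. The adjusted p of this exact test was 0.0284 without LSD 1, 0.0149 without Saline 2 and 0.0393 without the 4 libraries high in striatal markers, Saline 2 among them. It was between 0.0861 and 0.217 without any other single rat, 0.216 at equal depth and 0.283 in an exact permutation test of the means. The log2 ratio of Cacng8 to Cacng2 was 0.91 ± 0.18 in LSD and 0.90 ± 0.18 in Saline rats (SD, exact p = 0.853, adjusted p = 0.853). Of the TARP reads, Cacng3 made up 32.5% ± 1.81 in LSD and 29.6% ± 3.32 in Saline rats, Cacng2 23.5% ± 2.18 and 24.6% ± 2.33, and Cacng8 44.0% ± 1.97 and 45.8% ± 2.75 (SD, n = 10 each).

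**Figure D4:**
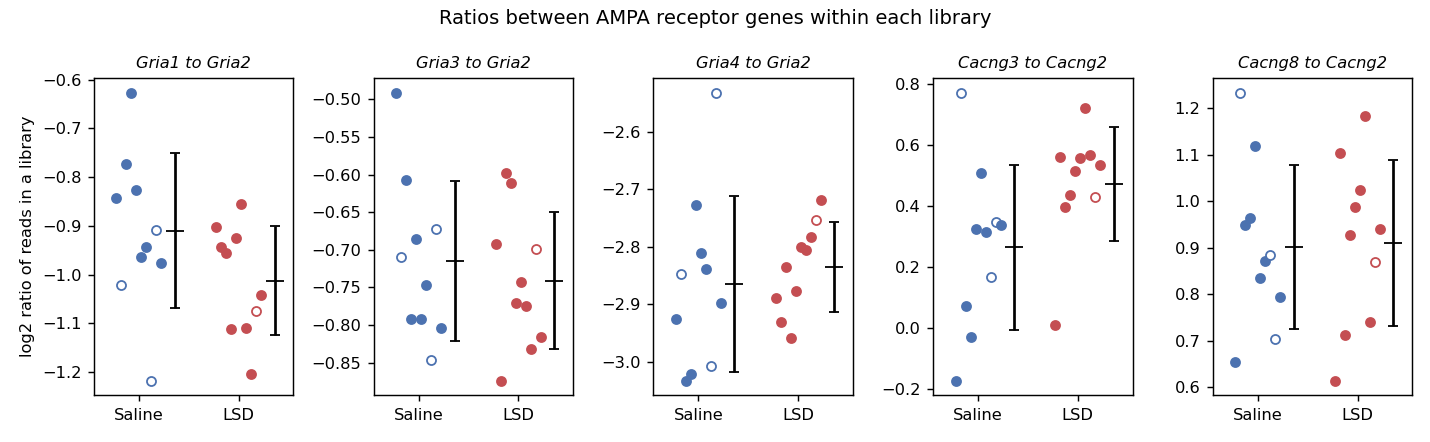
Log2 ratios of read counts between AMPA receptor genes in each library, Saline on the left and LSD on the right of each panel. Each point is 1 rat, open points are the 4 libraries high in striatal markers, bars are mean ± SD of 10 rats, and each panel has its own axis; the groups overlap in every panel, and in that of Cacng3 to Cacng2 9 of 10 LSD rats lie above the Saline median.

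Within the groups, some of the members varied together. Log2 levels were centred within each group, and all 28 pairs were correlated over the 20 rats, with 100000 permutations within groups and adjustment over the 28 pairs. By both Pearson's r and Spearman's rho, 8 pairs passed the threshold. How often pairs of other genes would pass was not examined, so these 8 pairs cannot be called particular to the members. Gria2 rose and fell with Gria3 (r = 0.75, permutation adjusted p = 0.00238, rho = 0.71, adjusted p = 0.00429) and with Gria4 (r = 0.70, permutation adjusted p = 0.00868, rho = 0.70, adjusted p = 0.00910). Rats with more Gria2 had less Cnih2 (r = -0.74, permutation adjusted p = 0.00308, rho = -0.68, adjusted p = 0.00969). Gria4 ran against Cacng8 (r = -0.83, permutation adjusted p = 0.000840, rho = -0.79, adjusted p = 0.00429), against Cnih2 (r = -0.71, permutation adjusted p = 0.00868, rho = -0.76, adjusted p = 0.00429) and against Cacng2 (r = -0.65, permutation adjusted p = 0.00996, rho = -0.59, adjusted p = 0.0246). The remaining pairs were Cacng2 with Cacng8 (r = 0.64, permutation adjusted p = 0.00868, rho = 0.63, adjusted p = 0.0116) and Cacng2 with Cnih2 (r = 0.61, permutation adjusted p = 0.0221, rho = 0.65, adjusted p = 0.0116).

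In these 8 pairs the sign of r was the same in the LSD rats and in the Saline rats taken alone. Gria4 with Cacng8 had r of -0.80 in LSD and -0.85 in Saline rats, and Gria2 with Cnih2 had r of -0.58 and -0.81. Without the 2 rats farthest from the median of the first gene, r was 0.69 for Gria2 with Gria3, 0.81 for Gria2 with Gria4, -0.64 for Gria2 with Cnih2, -0.77 for Gria4 with Cacng8, -0.68 for Gria4 with Cnih2, -0.66 for Gria4 with Cacng2, 0.54 for Cacng2 with Cacng8 and 0.59 for Cacng2 with Cnih2. Without the 4 libraries high in striatal markers, r was -0.88 for Gria4 with Cacng8, -0.74 for Gria2 with Cnih2, 0.68 for Gria2 with Gria3, 0.87 for Gria2 with Gria4, -0.84 for Gria4 with Cnih2, -0.63 for Gria4 with Cacng2, 0.63 for Cacng2 with Cacng8 and 0.62 for Cacng2 with Cnih2. Gria3 with Cnih2 passed by r alone (r = -0.62, permutation adjusted p = 0.0221, rho = -0.46, adjusted p = 0.119), and Cacng8 with Cnih2 by rho alone (r = 0.51, permutation adjusted p = 0.0863, rho = 0.56, adjusted p = 0.0451). For Gria3 with Cnih2, r was -0.27 without the 2 farthest rats, -0.19 in LSD and -0.88 in Saline rats. For Cacng8 with Cnih2 these values were 0.36, 0.91 and 0.34. Gria1 and Cacng3 were in none of these pairs.

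**Figure D5:**
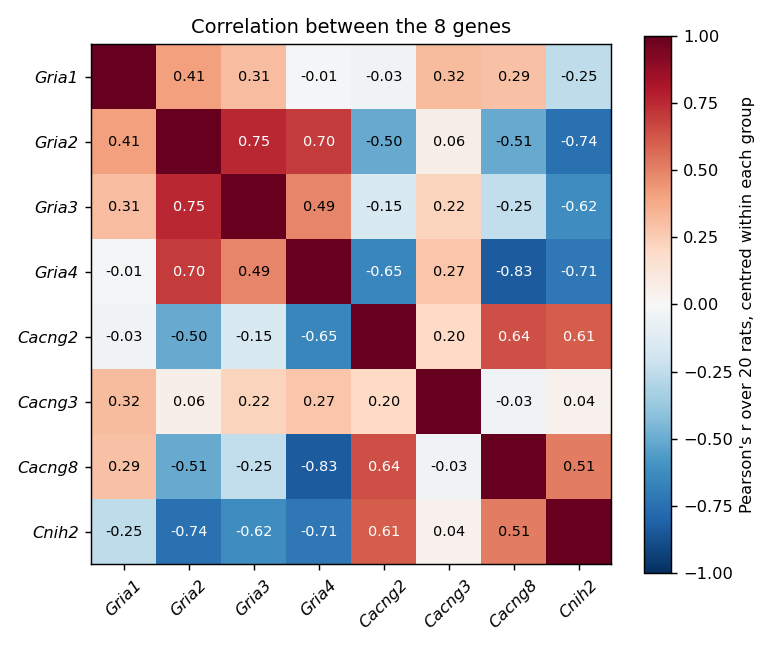
Pearson's r between the 8 genes over 20 rats, computed on log2 levels centred within each group, with red for positive and blue for negative values. The genes Gria2, Gria3 and Gria4 are positive with each other and negative with Cnih2, and the lowest value is -0.83 for Gria4 with Cacng8. Of these pairs, Gria3 with Gria4 passed the threshold by neither r nor rho, and Gria3 with Cnih2 by r alone.

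The points of such a correlation share a library, and with it the relation of that library to gene span. The span rho of each library, centred within groups, was correlated with the level of Gria2 (r = 0.74, permutation adjusted p over 8 genes = 0.00480, rho = 0.73, adjusted p = 0.00648) and of Gria3 (r = 0.64, permutation adjusted p = 0.0130, rho = 0.61, adjusted p = 0.0204). Without the 2 libraries farthest in span rho, r was 0.63 for Gria2 and 0.59 for Gria3. For Gria1 r was 0.60 (permutation adjusted p = 0.0366, rho = 0.49, adjusted p = 0.0974) and was 0.25 without the 2 libraries, so that it rested on them. Gria4 (r = 0.21, permutation adjusted p = 0.722, rho = 0.23, adjusted p = 0.558) and Cnih2 (r = -0.43, permutation adjusted p = 0.213, rho = -0.20, adjusted p = 0.558) did not pass. For Cacng2, Cacng3 and Cacng8 r was between -0.10 and -0.01, and none passed.

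Among 9713 genes with a mean of at least 10 RPM, the 3 whose centred log2 level was most like that of each member over the 20 rats were named, as a description. For Gria2 these were Rabgap1l (r = 0.94), Epm2aip1 (r = 0.93) and Fam117b (r = 0.92), and for Gria3 they were Whsc1 (r = 0.89), Ttll7 (r = 0.87) and Agtpbp1 (r = 0.87). Gria4 was closest to LOC102552920 (r = 0.92), Phf20l1 (r = 0.92) and Pls3 (r = 0.91), and Gria1 to Trpc5 (r = 0.90), Plppr4 (r = 0.88) and Rcor1 (r = 0.87). Trpc5 encodes a neuronal cation channel, and Agtpbp1 an enzyme that trims glutamate from tubulin. Cnih2 was closest to Ctdnep1 (r = 0.90), Fam110a (r = 0.89) and Hmga1 (r = 0.87), and Cacng8 to Jph4 (r = 0.93), Pabpc1l2a (r = 0.92) and Icam5 (r = 0.92). Jph4 encodes a neuronal junctophilin and Icam5 the adhesion molecule telencephalin. Cacng2 was closest to Fam189b (r = 0.92), Mgrn1 (r = 0.92) and Limk1 (r = 0.91), and Cacng3 to Trpc6 (r = 0.88), Tmem200a (r = 0.84) and Medag (r = 0.78). No member was among the 3 closest genes of another.

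The windows upstream of the start site, from RefSeq for GRCr8, were held for Cacng2, Cacng3, Cacng8, Cnih2 and Gria4. The start is the one given with these windows. It lies inside the gene span by 37 bases for Cnih2, 140 for Gria4, 228 for Cacng3 and 1314 for Cacng2. The whole Cacng2 window thus lies within its gene and is not sequence upstream of it. The 250 bases before it are shown for Cnih2, the member that was lower, and for Gria4, the subunit gene with the largest fold change. Capitals mark GC boxes, the letters GGGCGG or, as here, their reverse complement.
Cnih2 (GRCr8 chr1:211834438-211834687, minus strand): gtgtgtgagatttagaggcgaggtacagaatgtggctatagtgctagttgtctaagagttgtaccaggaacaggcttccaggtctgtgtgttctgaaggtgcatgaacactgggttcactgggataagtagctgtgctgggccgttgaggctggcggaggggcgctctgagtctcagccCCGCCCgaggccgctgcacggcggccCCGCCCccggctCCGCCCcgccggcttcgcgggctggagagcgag
Gria4 (GRCr8 chr8:10319882-10320131, minus strand): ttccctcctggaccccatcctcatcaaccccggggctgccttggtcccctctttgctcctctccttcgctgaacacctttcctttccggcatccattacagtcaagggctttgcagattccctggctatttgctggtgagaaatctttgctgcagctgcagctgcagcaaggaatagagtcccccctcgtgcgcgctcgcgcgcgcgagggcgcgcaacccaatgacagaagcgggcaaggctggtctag
The Cnih2 stretch holds 3 GC boxes that begin 71, 45 and 33 bases before the start, and that of Gria4 none. The last 37 of the bases shown for Cnih2, the GC box at 33 among them, and the last 140 of those shown for Gria4 lie within the gene span. Of the 5 windows, which run to 50 bases past the start, those of Cnih2 and Cacng3 hold a GC box, a motif chosen after the windows were read and held by 33.1% of all 33469 windows on either strand. The cAMP response element TGACGTCA, the E-box CACGTG and the Egr site GCGTGGGCG, held by 1.83%, 6.42% and 0.544% of all windows, are in none of the 5. Over their 300 bases the Cnih2 window was 65.3% G and C with 24 CpG and the Gria4 window 60.3% with 15 CpG. The medians over all windows were 51.7% and 7. The Cacng2 window, which lies within the gene, was 39.0% with 7 CpG.

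Around these 8 genes, 72 further genes of the AMPA receptor pathway were examined in 7 lists. All 72 passed the filter, and their median log2 fold change was 0.03. Of them 10 (13.9%) were higher and 6 (8.33%) lower, beside 6.48% and 8.54% of all genes tested, so the share called lower was near that of all genes. With span offsets 1 of the 72 (1.39%), Myo5a, was higher and 8 (11.1%) were lower, beside 3.64% and 6.62% of all genes, and the 8 were Cacng7, Shisa9, Abhd12, Olfm1, Pick1, Epb41l1, Camk2b and Ptpn5. The count of genes called higher in the fit without offsets went from 10 to 6 without LSD 3 or Saline 3. It fell to 5 without Saline 4 or Saline 5, and to 4 without LSD 8. It rose to 15 without Saline 2, to 12 without LSD 1, and to 11 without Saline 8 or Saline 10. In these fits the count called higher over all genes moved the same way, from 1076 with all rats. It was 663 without LSD 8, 705 without Saline 4, 1278 without LSD 1 and 1669 without Saline 2. Of the 72, the count called lower went from 6 to 3 without LSD 7, LSD 8, Saline 1, Saline 5 or Saline 9. It went to 2 without Saline 4 and to 10 without Saline 10. Over all genes the count called lower went from 1418 to 969 without LSD 8, 957 without Saline 4 and 1776 without Saline 10. With no filter on low counts, 3 of the 72 were lower, beside 836 of all 25199 genes. With span offsets and without the 4 libraries high in striatal markers, 8 of the 72 were called higher and 12 lower. In that fit 1362 of all 16235 genes tested were higher and 1454 lower. Without those 4 libraries alone the counts were 16 (22.2%) higher and 9 (12.5%) lower, beside 10.5% and 10.4% of all genes.

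Of the 6 other TARPs, cornichons and claudin-like subunits, Cacng7 was lower, at 120 RPM in LSD and 135 RPM in Saline rats (log2 fold change -0.17, edgeR adjusted p = 0.0386). Its adjusted p was 0.0999 without the 4 libraries. The cornichon relatives Cnih1 and Cnih3 had log2 fold changes of -0.12 (adjusted p = 0.229) and 0.03 (adjusted p = 0.734). Of the 11 CKAMP and other transmembrane auxiliary proteins, Prrt1, also called SynDIG4, was lower (log2 fold change -0.34, adjusted p = 0.0237) and Neto1, an auxiliary subunit best known from kainate receptors, was higher (0.22, adjusted p = 0.0239).

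Receptor biogenesis in the endoplasmic reticulum was represented by 6 genes. Frrs1l, part of the complex that assembles AMPA receptors before they leave the reticulum, was higher (log2 fold change 0.26, edgeR adjusted p = 0.0306). The hydrolase gene Abhd12 was lower (-0.20, adjusted p = 0.00887), as was Porcn, an acyltransferase that binds the receptor (-0.26, adjusted p = 0.0335). Among the 6 extracellular clustering proteins none was called. Olfm1 (-0.21, adjusted p = 0.0617) and the neuronal pentraxin receptor gene Nptxr (-0.25, adjusted p = 0.169) had the smallest p there, and 5 of the 6 log2 fold changes were below 0. With the 4 libraries high in striatal markers left out, 3 of the 6 were lower, which were Nptxr (-0.37, adjusted p = 0.0254), Olfm1 (-0.26, adjusted p = 0.0225) and the pentraxin gene Nptx2 (-0.28, adjusted p = 0.0480). In that fit the biogenesis gene Sacm1l was also higher (0.31, adjusted p = 0.0397).

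Of 23 scaffold and trafficking genes, 5 were higher and 1 lower, beside 6.48% and 8.54% of all genes. The list's median was 0.11 on the log2 scale. The motor gene Myo5a (0.41, edgeR adjusted p = 0.0156), the scaffold gene Homer1 (0.30, adjusted p = 0.0250), Dlg1, which encodes the GluA1 partner SAP97 (0.25, adjusted p = 0.0260), Grip1, a scaffold that binds the GluA2 tail (0.20, adjusted p = 0.0434), and Dlg2 (0.16, adjusted p = 0.0394) were higher. Pick1, whose protein binds the same GluA2 tail and takes part in its internalisation, was lower (-0.23, adjusted p = 0.0105). Grip1 spans 657377 and Pick1 20386 bases, and with span offsets Grip1 stood at 0.07 (adjusted p = 0.458) and Pick1 at -0.21 (adjusted p = 0.0152). Leaving out the 4 libraries, Gripap1 (0.15, adjusted p = 0.0231), Kif5b (0.26, adjusted p = 0.0350) and Sdcbp (0.16, adjusted p = 0.0467) were higher as well, and Dlg4, which encodes the scaffold PSD-95, was lower (-0.25, adjusted p = 0.0247).

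Of 17 kinases, phosphatases and ubiquitin enzymes that act on the receptor, Prkca (0.24, edgeR adjusted p = 0.0134), the deubiquitinase gene Usp46 (0.18, adjusted p = 0.0296) and Prkacb (0.15, adjusted p = 0.0360) were higher. Prkaca, which encodes another catalytic subunit of protein kinase A, was lower (-0.14, adjusted p = 0.0466). Prkaca did not pass when the 4 libraries were left out (adjusted p = 0.0643), while Usp8 (0.24, adjusted p = 0.0140) and Mdm2 (0.23, adjusted p = 0.0355) were higher and Camk2b was lower (-0.18, adjusted p = 0.0383). None of the 3 RNA editing enzymes was called. Adarb1, whose product edits the codon of GluA2 that sets calcium permeability, stood at -0.08 on the log2 scale (adjusted p = 0.449) and Adarb2 at 0.22 (adjusted p = 0.119).

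Cell type markers were read beside these results. Of 7 inhibitory neuron markers, Gad2 (0.23, edgeR adjusted p = 0.0369) and Vip (0.27, adjusted p = 0.0486) were higher and Slc32a1 (-0.34, adjusted p = 0.0180) and Sst (-0.28, adjusted p = 0.0222) were lower, with a summed level of 680 to 837 RPM in LSD and 721 to 958 RPM in Saline rats. All 6 oligodendrocyte markers had log2 fold changes below 0, none called, and their sum ran from 2232 to 5761 RPM in LSD and from 2195 to 7479 RPM in Saline rats. All 7 striatal markers were below 0 as well, none called, with a median log2 fold change of -0.61. The excitatory neuron marker Slc17a7 stood at -0.17 (adjusted p = 0.153) and was not called, and no astrocyte, microglia, precursor or endothelial marker was called. The part of cell composition in the values of the 8 genes was not tested.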

How the data were processed

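Per the labels and the study's methods, 1 poly(A)-selected library per rat was sequenced from the mPFC. Trimming was by TrimGalore and alignment by HISAT2 against the rn6 genome, and the authors deposited raw read counts per gene from HTSeq-count. Strand setting, annotation and versions are not given in the sources used here. From these counts, 5 rows with no gene name (25.5 to 29.0% of reads) were left out, and a gene was kept if 10 or more libraries each held 5 or more of its reads. The main test was edgeR's quasi-likelihood F test (edgeR 4.0.16, R 4.3.3, TMM factors, group as the only term) with Benjamini-Hochberg adjustment. SE is the log2 fold change divided by the root of F. RPM are TMM-scaled. The script was tested on simulated data. Ratios and correlations were computed in numpy 2.4.6, with ranks from scipy 1.17.1 and exact or 100000-fold permutation tests (seed 1). Likeness used log2(RPM + 1). Span came from RefSeq GRCr8, matched by symbol for 85.9% of genes kept. Span offsets were fitted per library over 50 bins, smoothed over 5 and centred. The text names all 8 members, each pathway gene called, the 2 smallest p in lists without a call, and the 3 genes most like each member. A few further genes were named after their values were seen, which are Cnih1, Cnih3 and those called with span offsets or without 4 libraries. The members and lists were chosen with earlier results of these data known. The fits without 4 libraries were added after seeing the data. Other alternatives were DESeq2 1.42.0, median-ratio factors, total-count scaling, other filters, a replicate block, 1 surrogate variable (sva 3.50.0), equal depth (11098076 reads per library) and leaving out each library. P-values measure the spread between rats. One marker gene is not reported here. Overlapping or antisense genes cannot be told apart without strand.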

Additional observations from a re-analysis of the deposited data

Results flagged for a closer look

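The log2 ratio of Cacng3 to Cacng2 reads in LSD replicate 1 was 0.0104, far below the other 9 LSD rats, and was the one extreme value among 26 groups of 10 rats that were examined for a single distant rat. By chance about 1 in 20 such groups would hold one. Cacng2 was at its LSD maximum in this rat, at 70.2 RPM.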

How the results depend on the processing

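The directions of the 8 fold changes did not change in any of 32 alternative settings. Gria2, Gria3, Gria4 and Cnih2 were past the threshold in all 20 fits that left out 1 library, with edgeR adjusted p of 0.00832 to 0.0372, 0.0111 to 0.0474, 0.00817 to 0.0360 and 0.00894 to 0.0403. They were also past it with DESeq2, median-ratio factors, total-count scaling, both other filters, 1 surrogate variable and equal depth. With centred span offsets, 0 members were called higher and 0 lower. With the offsets and without the 4 libraries, 1 was higher and 0 lower. Same-numbered LSD and Saline rats were above a correlation of 0.1 in 6 of 10 pairs. Their mean was 0.15, against -0.02 for rats of different numbers. The best match had the same number for 1 of 10 LSD and 2 of 10 Saline rats. The labels give replicate numbers only, so whether these mark pairs cannot be told. The main fit has no pairing, and a replicate block called 1355 genes higher and 1606 lower. With a replicate block, Gria1 was past the threshold at 0.14 (adjusted p = 0.0317) and the calls of Gria2, Gria3, Gria4 and Cnih2 were kept. In that fit 11 of the 72 pathway genes were lower and 10 higher, beside 1606 and 1355 of all 16605 genes. With span offsets in the block too, 13 of the 72 were lower and 2 higher, beside 1284 and 820 of all 16605 genes. The adjusted p of the Cacng3 to Cacng2 ratio, blocked by replicate number, was 0.0781 in an exact sign-flip test. The block with span offsets called 1 member higher, Gria2 (0.16, adjusted p = 0.0475), and 1 lower, Cacng2 (-0.21, adjusted p = 0.0377). Over all genes, 605 were higher with span offsets, 1701 higher without the 4 libraries, 858 lower with total-count scaling and 836 lower with no filter on low counts. Leaving out 1 library gave 663 to 1669 higher. The difference in the Cacng3 to Cacng2 log2 ratio was 0.28 without the 4 libraries and 0.16 to 0.26 without 1 rat. That of Cacng8 to Cacng2 was -0.00505 at equal depth and -0.0212 to 0.0461 without 1 rat, so it has no direction. The cause of these shifts was not tested. Depth limited no member, since each had at least 556 reads in every library.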
